A study of Mus musculus with 56 samples.

Results

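Interleukin 33 and its relatives of the interleukin 1 (IL-1) family were followed through 56 RNA-sequencing samples of mouse mammary tumor cell lines. The family was represented by 8 of the 20314 genes measured, which were the cytokine Il33, its receptor Il1rl1, the further ligands Il1a, Il1b and Il18, the antagonist Il1rn, the IL-1 receptor Il1r1 and the shared receptor subunit Il1rap. The set was built around Il33 because Il33 mRNA was far higher in D164A/- than in fl/fl cells, so every difference between these 2 genotypes is given below as a description and was not tested. The lines came from mammary tumors of MMTV-PyMT mice on the FVB/N background, in which a mammary promoter drives the polyoma middle T oncogene, and fibroblasts had been removed by differential trypsinization. All lines share this oncogene. The fl/fl cells carried floxed β-catenin alleles. In D164A/fl, ΔC/fl and dm/fl lines, a D164A, ΔC or dm allele of β-catenin stood beside a floxed allele, and in D164A/-, ΔC/- and dm/- lines the floxed allele had been removed by an adenovirus that carries Cre and a fluorescent protein, followed by sorting. The D164A protein does not bind the co-activators Bcl9 and Bcl9l. The other 2 alleles are named here as the labels name them. Each genotype was measured in 4 culture states, namely with Wnt3a at 100 ng/ml for 3 days, with TGFβ for 4 days at a dose of 2 ng/ml, and untreated beside each of these, with 2 replicates per condition and 28 conditions in all. The submitters call the replicates biological but do not say whether they were separate lines or cultures, so p-values measure the spread between these samples, and a genotype and a cell line cannot be told apart.

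IL-33 is a nuclear cytokine of barrier epithelia and stromal cells that is released upon damage, and is therefore called an alarmin. It binds ST2, the product of Il1rl1, which pairs with the IL-1 receptor accessory protein encoded by Il1rap and signals through Myd88, Irak kinases and NF-κB. The same accessory protein serves IL-1α and IL-1β, the products of Il1a and Il1b, at the receptor Il1r1, where the antagonist encoded by Il1rn competes with them. IL-18, the product of Il18, uses a receptor of the same family. In mammary tumors these cytokines are known as signals between tumor cells and leukocytes or fibroblasts.

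Levels are given in CPM, the deposited reads of a gene in 1 M reads of an effective library size. Between 22.4 and 33.7 M reads per sample fell in genes (median 26.8), and 1 read equalled 0.0306 to 0.0486 CPM. The epithelial genes Epcam, Cdh1, Krt8 and Krt18 were above 1 CPM in 56 of 56 samples, and the sum of 8 epithelial markers lay between 1852 and 15730 CPM, although Krt19 reached 1 CPM in 8 samples only. Of the leukocyte markers, Ptprc did not exceed 0.208 CPM and Adgre1, Itgam and Cd3e did not exceed 0.196 CPM. By contrast, Csf1r reached 529.7 CPM, Cd68 was above 1 CPM in 56 of 56 samples and reached 79.4 CPM, and Lyz2 reached 3.96 CPM. Of the fibroblast markers, Lum and Thy1 did not exceed 0.117 CPM and Dcn did not exceed 3.49 CPM. By contrast, Pdgfra reached 302 CPM, Col3a1 183.6 CPM, Col1a1 70.9 CPM and Col1a2 15.6 CPM. These are bulk samples, in which fewer cells of a type and less RNA per cell cannot be told apart.

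The promoters of Il33, Il1rl1 and Il1rn are shown because most of the results below turn on these 3 members. Each window runs from 250 bases before to 50 bases after an annotated RefSeq start (GRCm38.p6, plus strand, 5′ to 3′), and capitals mark a match to the TCF/LEF core CTTTGA, the AP-1 motif TGANTCA or the SMAD motif CAGAC on either strand. Il33 (Entrez 77125) lies at chr19:29925113-29960718 and has 2 windows, at chr19:29924863-29925162 and chr19:29945540-29945839.
Il33, first start: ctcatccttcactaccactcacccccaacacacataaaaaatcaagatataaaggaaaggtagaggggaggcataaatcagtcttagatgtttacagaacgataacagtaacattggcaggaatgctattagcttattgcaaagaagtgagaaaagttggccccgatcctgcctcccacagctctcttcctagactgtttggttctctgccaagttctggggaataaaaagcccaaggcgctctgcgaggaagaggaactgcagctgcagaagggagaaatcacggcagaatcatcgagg
Il33, second start: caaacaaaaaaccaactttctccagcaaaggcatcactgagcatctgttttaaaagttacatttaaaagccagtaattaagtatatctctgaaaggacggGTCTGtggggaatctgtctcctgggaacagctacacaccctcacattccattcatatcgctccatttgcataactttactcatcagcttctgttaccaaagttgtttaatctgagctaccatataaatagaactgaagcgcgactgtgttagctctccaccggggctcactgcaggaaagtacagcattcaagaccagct
The first window held none of the 3 motifs, and the second held 1 SMAD match, GTCTG, at 150 bases before the start. Il1rl1 (Entrez 17082) lies at chr1:40404864-40465418, and neither of its windows, at chr1:40429320-40429619 and chr1:40439379-40439678, held a motif. Il1rn (Entrez 16181) lies at chr2:24336860-24351491, and its first window, chr2:24336610-24336909, held an AP-1 match at 141 bases before and a SMAD match at 18 bases after the start.
Il1rl1, first start: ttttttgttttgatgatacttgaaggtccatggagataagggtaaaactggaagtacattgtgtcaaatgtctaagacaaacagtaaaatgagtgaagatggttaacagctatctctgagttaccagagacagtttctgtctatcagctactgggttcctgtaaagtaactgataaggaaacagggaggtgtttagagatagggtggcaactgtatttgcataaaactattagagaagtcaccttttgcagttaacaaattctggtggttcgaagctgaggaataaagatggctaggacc
Il1rn, first start: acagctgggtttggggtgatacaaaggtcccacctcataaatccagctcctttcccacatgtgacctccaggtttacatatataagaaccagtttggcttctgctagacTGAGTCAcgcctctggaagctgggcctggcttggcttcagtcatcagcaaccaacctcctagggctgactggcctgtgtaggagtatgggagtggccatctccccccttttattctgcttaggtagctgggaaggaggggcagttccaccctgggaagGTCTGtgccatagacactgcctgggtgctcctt
Of 32851 mouse promoter windows of this length, 16.0% held the TCF/LEF core, 7.8% the AP-1 motif and 49.6% the SMAD motif. No window of the 8 members held CTTTGA or its reverse complement. These are matches of letters and not mapped binding sites.

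Il33 mRNA ranged from 0 to 299.9 CPM and was absent or low in most conditions. In fl/fl cells, Il33 was 0.0946 and 0.153 CPM untreated and 0.491 and 0.631 CPM with Wnt3a, and 0.0403 and 0.225 CPM untreated and 0.0444 and 0.0368 CPM with TGFβ. All 8 fl/fl values lay under 1 CPM, and those with TGFβ rested on 1 read each. In D164A/fl cells, Il33 was 4.89 and 9.37 CPM untreated and 116 and 57.0 CPM with Wnt3a, and 0.142 and 0.675 CPM untreated and 0.186 and 0.66 CPM with TGFβ. The D164A/- cells had 37.9 and 20.8 CPM of Il33 untreated and 299.9 and 118 CPM with Wnt3a, and 17.6 and 19.8 CPM untreated and 15.9 and 3.04 CPM with TGFβ. D164A/- was the single genotype with at least 1 CPM in all 8 samples. The ΔC/fl cells had 1.01 and 1.38 CPM untreated and 6.46 and 3.97 CPM with Wnt3a, and 42.7 and 8.44 CPM untreated and 0 and 0.128 CPM with TGFβ. By contrast, ΔC/- cells stayed between 0.0395 and 0.859 CPM in all 8 samples. The dm/fl cells had 1.5 and 8.06 CPM untreated and 59.7 and 17.5 CPM with Wnt3a, and 28.7 and 13.3 CPM untreated and 0.218 and 0.427 CPM with TGFβ. In dm/- cells no read of Il33 was found in any of the 8 samples, which allows up to 3 reads or 0.0917 to 0.119 CPM per sample, counting error only.

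**Figure D1:**
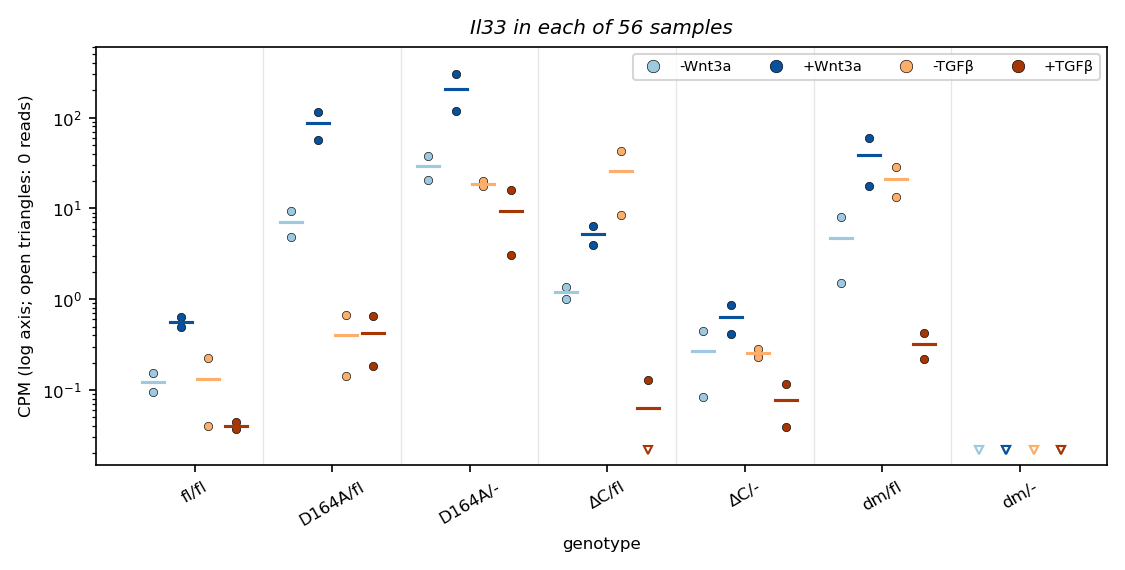
Il33 in CPM on a log axis for each of the 56 samples, by genotype (x axis) and culture state (color), with a line at each condition mean and open triangles for samples with 0 reads. All 8 D164A/- samples lie between 3.04 and 299.9 CPM, all 8 fl/fl samples under 1 CPM, and all 8 dm/- samples at 0 reads.

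Ordered by mean level, D164A/- cells with Wnt3a came first (209 CPM), followed by D164A/fl with Wnt3a (86.5 CPM), dm/fl with Wnt3a (38.6 CPM) and untreated D164A/- of the Wnt3a experiment (29.3 CPM). Means of at least 1 CPM were found in 12 of 28 conditions and of at least 10 CPM in 7. The replicates of 21 of the 27 neighbouring pairs in this order overlapped, so the order within most of the list is not resolved. The first 2 conditions did not overlap, but their nearest samples stood close together, at 118 and 116 CPM. The members were chosen by the Il33 CPM of D164A/- and fl/fl cells, and these means differed 237-fold in untreated cells of the Wnt3a experiment, and 372-fold with Wnt3a. The fl/fl side of the first ratio rested on 3 and 4 reads and that of the second on 12 and 14 reads. In the TGFβ experiment fl/fl cells had 1 and 6 reads untreated and 1 read in each treated sample, and no fold is given.

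Untreated cells of the same genotype did not have the same Il33 level in the 2 experiments. The mean of untreated D164A/fl cells was 17.5-fold lower in the TGFβ than in the Wnt3a experiment, that of D164A/- cells 1.57-fold lower, that of ΔC/fl cells 21.5-fold higher and that of dm/fl cells 4.39-fold higher, with no overlap of replicates. In untreated fl/fl and ΔC/- cells the replicates of the 2 experiments overlapped. These differences were not tested, and each treated group is compared below with the untreated cells of its own experiment.

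Il1rl1, the receptor of IL-33, had its highest sample in fl/fl cells, where Il33 was near 0. In fl/fl cells it was 261 and 318 CPM untreated and 86.4 and 203 CPM with Wnt3a, and 93.0 and 103 CPM untreated and 184 and 135 CPM with TGFβ. In D164A/- cells it was 3.17 and 2.19 CPM untreated and 3.77 and 2.48 CPM with Wnt3a, and 0.193 and 1.10 CPM untreated and 7.58 and 17.8 CPM with TGFβ. The fl/fl and D164A/- samples did not overlap in any culture state. D164A/fl cells, with 1.05 to 20.6 CPM over 8 samples, overlapped the D164A/- cells. ΔC/fl cells had 13.0 to 179 CPM and dm/fl cells 22.1 to 299.8 CPM, against 0.0776 to 2.51 CPM in ΔC/- and 1.25 to 5.93 CPM in dm/- cells. In dm/fl cells Il33 and Il1rl1 were both above 10 CPM with Wnt3a, where Il33 was 59.7 and 17.5 CPM and Il1rl1 299.8 and 170.2 CPM, and in untreated cells of the TGFβ experiment, where Il33 was 28.7 and 13.3 CPM and Il1rl1 104 and 99.5 CPM. Over the 28 condition means, which share lines and libraries, Pearson's r between Il33 and Il1rl1 on the log2(CPM + 1) scale was -0.04.

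The co-receptor Il1rap was present everywhere, at 9.17 to 187 CPM, with medians between 37.4 CPM in dm/- and 112 CPM in D164A/- cells. Il1r1, the signaling receptor for IL-1, was between 2.25 and 43.4 CPM. Its values in dm/- cells were 2.44 and 3.12 CPM untreated, 2.67 and 2.25 CPM with Wnt3a, 3.27 and 2.40 CPM untreated and 12.8 and 27.96 CPM with TGFβ. The 6 dm/- samples without TGFβ lay under all samples of the other 6 genotypes, the lowest of which had 7.91 CPM.

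Il1a, which encodes a ligand of Il1r1, followed a different pattern from Il33. In fl/fl cells it was 838 and 660.0 CPM untreated and 121 and 261 CPM with Wnt3a, and 563 and 394 CPM untreated and 527 and 288 CPM with TGFβ. In D164A/- cells it was 1.68 and 2.03 CPM untreated and 1.66 and 1.75 CPM with Wnt3a, and 0.232 and 0.609 CPM untreated and 0 and 0.0733 CPM with TGFβ. The lowest fl/fl sample stood at 121 CPM and the highest D164A/- sample at 2.03 CPM, which is the reverse order of that for Il33. Il1a was 5.72 to 74.7 CPM in D164A/fl, 0.215 to 16.9 CPM in ΔC/fl, 4.70 to 502 CPM in ΔC/-, 6.49 to 153 CPM in dm/fl and 1.65 to 17.0 CPM in dm/- cells. Il1b, the other IL-1 ligand, did not exceed 0.621 CPM and had 0 reads in 16 of 56 samples, so it missed the filter for testing and 7 of the 8 members were tested. Il18 was between 0.495 and 22.7 CPM, with its highest medians in ΔC/fl (14.7 CPM) and ΔC/- cells (11.6 CPM).

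Il1rn, which encodes the receptor antagonist, was 8.90 and 6.82 CPM in untreated and 10.0 and 6.13 CPM in Wnt3a-treated fl/fl cells, and 16.7 and 7.67 CPM untreated and 2.31 and 1.66 CPM with TGFβ. In D164A/- cells it was 56.5 and 67.9 CPM untreated and 58.6 and 58.1 CPM with Wnt3a, and 21.0 and 29.1 CPM untreated and 8.11 and 10.1 CPM with TGFβ. The D164A/- values lay above those of fl/fl cells in each of the 4 states. D164A/fl cells had the highest median of the 7 genotypes, at 72.3 CPM.

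To compare genes, CPM were divided by the exonic length in kb. The highest sample of Il1a had 425 CPM per kb, that of Il33 104, that of Il1rl1 46.2 and that of Il1rn 25.1. Il18 reached 22.0, Il1rap 16.4, Il1r1 6.82 and Il1b 0.326 CPM per kb. In fl/fl cells the median was 233 CPM per kb for Il1a, 23.1 for Il1rl1 and 0.043 for Il33. The median in D164A/- cells was 7.04 for Il33, 0.575 for Il1a and 0.41 for Il1rl1, so that Il33 and Il1a stood in reverse order in these genotypes. Il18 had a median of 2.11 in fl/fl and 1.76 in D164A/- cells. The Il33 side of this order is the difference by which the set was chosen. Il33, Il1a, Il1b and Il1rap overlap annotated long noncoding genes and Il18 overlaps Bco2 and Tex12, and whether reads were counted by strand is not given in the sources used here.

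**Figure D2:**
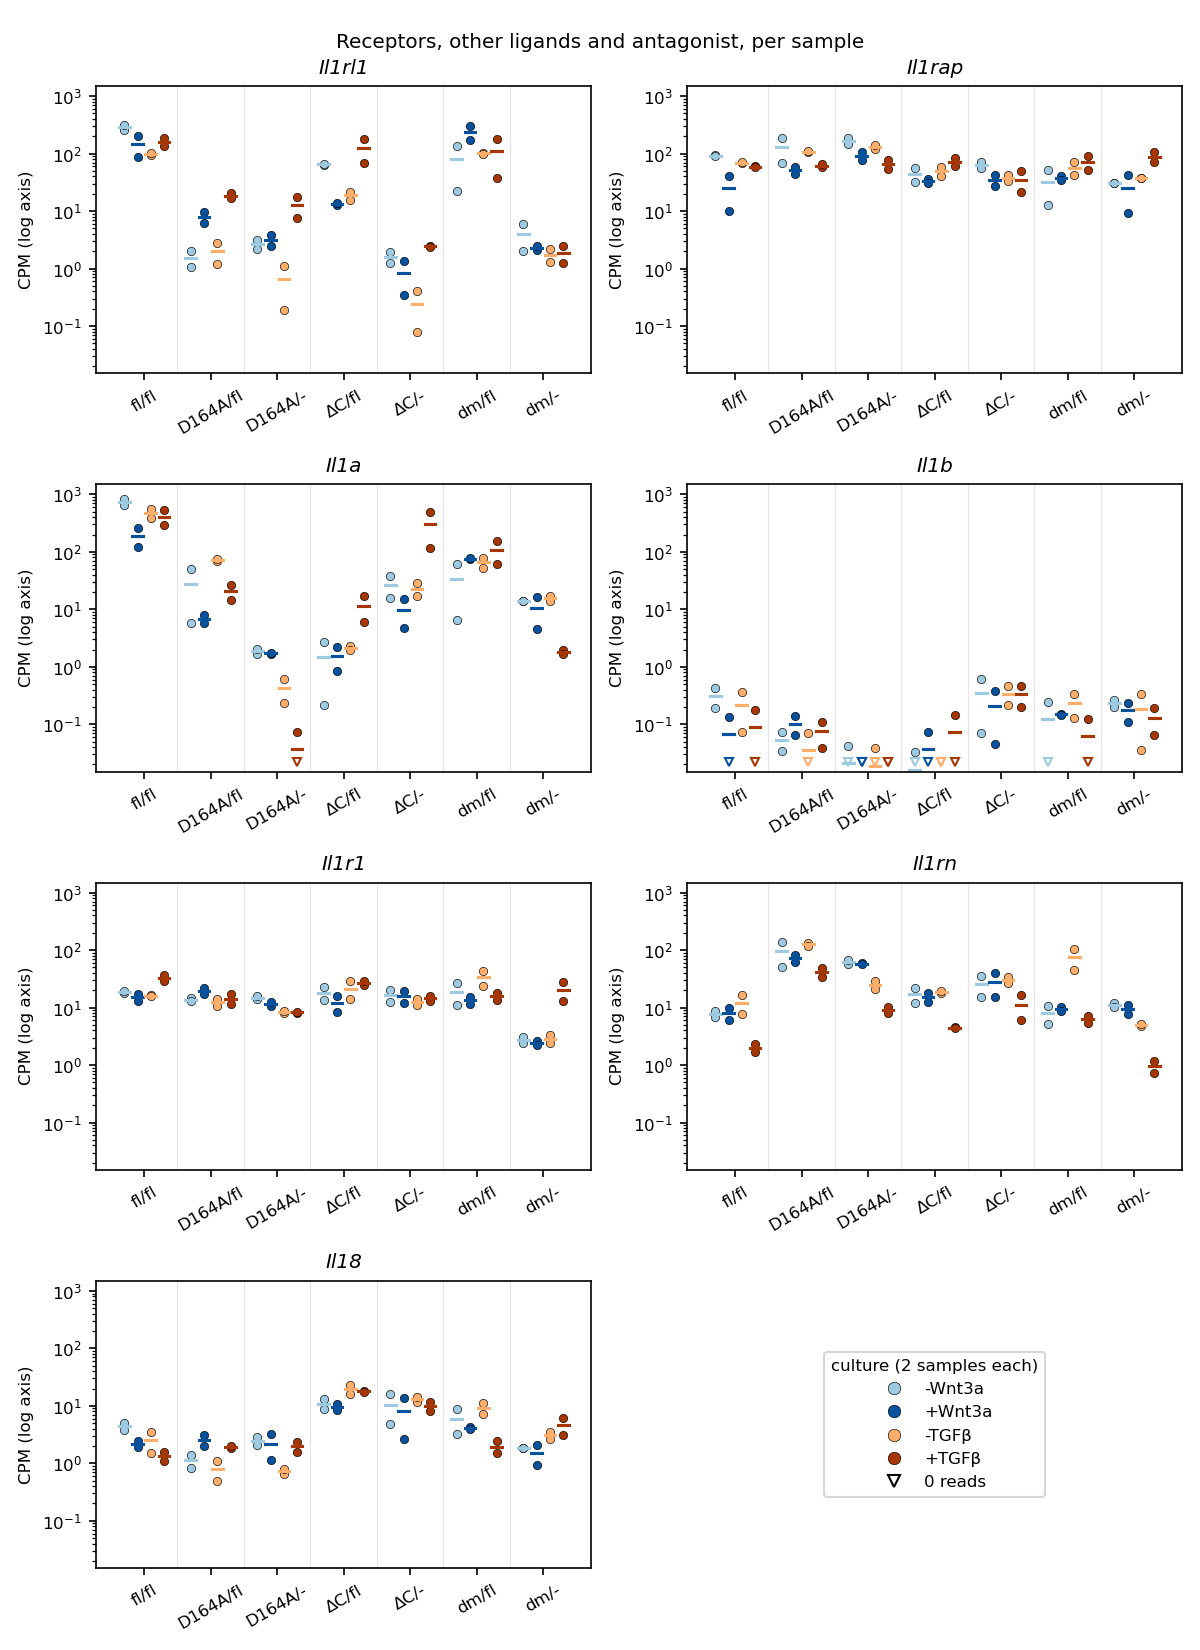
CPM on a log axis for each sample of the other members, by genotype (x axis) and culture state (color), with a line at each condition mean and open triangles for 0 reads. The fl/fl samples have the highest median of the genotypes for Il1a (121 to 838 CPM) and Il1rl1 (86.4 to 318 CPM), D164A/fl samples that for Il1rn, and Il1b stays under 1 CPM throughout.

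Wnt3a raised Il33 in 3 genotypes, and no other tested member was called in this fit. The response was tested with limma on log2(CPM + 1) values, with all 56 samples and 13754 genes in 1 fit, and calls required an adjusted p up to 0.05 together with a log2 difference of 1 or more in either direction. Il33 rose in D164A/fl cells by 3.40 on the log2 scale (SE 0.60, adjusted p = 0.0001651), in D164A/- cells by 2.70 (SE 0.60, adjusted p = 0.01565) and in dm/fl cells by 2.82 (SE 0.60, adjusted p = 0.01427). The ratio of the mean CPM was 12.1, 7.12 and 8.08 in these lines. In ΔC/fl cells the ratio was 4.37 and the log2 difference 1.48, with an adjusted p of 1.0. In fl/fl cells, the CPM ratio was 4.52 at levels under 1 CPM, and the adjusted p was 0.7113. Treated and untreated replicates did not overlap in 5 of the 6 genotypes with Il33 reads, the exception being ΔC/-, and the treated samples were higher in each of the 5. The share of all genes with such a separation was not counted, so this is a description only. The fl/fl values rest on 3 and 4 reads untreated and 12 and 14 reads with Wnt3a. Averaged over the 7 genotypes, Il33 rose by 1.61 (SE 0.23, adjusted p = 9.597e-06). Il33 belongs to a gene list that the study chose for differences from wild-type control cells with Wnt3a. The list holds genes shared by D164A/- cells and by cells whose Bcl9 and Bcl9l lack the β-catenin-binding HD2 domain (ΔHD2/-). The ΔHD2/- cells are not in these samples, but the D164A/- cells are, so the values of Il33 in the D164A/- line are not independent evidence. The ΔC and dm lines did not enter that list.

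In the mean over genotypes no other member was called either. Il1rap came nearest in the mean, at -0.78 (SE 0.21, adjusted p = 0.02833), which is under the required fold change. Among all genes, the percentage called was 0.378% in fl/fl, 4.15% in D164A/fl, 0.654% in D164A/-, 0.225% in ΔC/fl, 0.0509% in ΔC/-, 0.574% in dm/fl, 0% in dm/- and 0.494% for the mean response. The 0% of dm/- cells stands beside 29 genes at an unadjusted p under 0.05 with limma, and edgeR also called 0 genes there, with 39 at that unadjusted p. On the log2(CPM + 1) scale the response of Il33 differed among the 7 genotypes (F test in limma, adjusted p = 0.03678). That of Il1rl1 did too (adjusted p = 0.01414), while 2.39% of all genes passed this test. For Il33 the test cannot separate a different response from a different starting level. Lines near 0 CPM show little change on this scale, and dm/- cells had 0 reads. In lines with Il33 reads, the ratio of mean CPM ran from 2.39 in ΔC/- to 12.1 in D164A/fl cells. For Il1rl1 the log2 differences ran from -2.19 in ΔC/fl, where it went from 63.4 and 66.9 CPM to 13.0 and 14.1 CPM, to 2.01 in dm/fl, where it went from 22.1 and 137 CPM to 299.8 and 170.2 CPM. Neither passed the test on its own, and in dm/fl cells the difference of Il1rl1 was 1.11 to 2.03 under the other settings. The F test of Il33 passed in 16 of the 28 fits that left out 1 sample, and that of Il1rl1 did not pass without replicate 1 of Wnt3a-treated D164A/fl or dm/fl cells or with edgeR.

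The calls of Il33 in D164A/- and dm/fl cells were lost with a pseudocount of 0.1 and with edgeR, and all 3 were lost when only the samples compared were fitted. Leaving out 1 library also ended the call in D164A/- cells (untreated replicate 1 or 2, or treated replicate 1) and in dm/fl cells (replicate 1, untreated or treated). In dm/fl cells the Wnt3a response of all genes followed their GC content (Spearman's rho -0.75 across genes), and with the GC trend removed the increase of Il33 there was 1.84 and was not called. The Wnt3a response also followed GC content in fl/fl (rho 0.74) and ΔC/- cells (rho 0.77), in the opposite direction. With edgeR the mean over 7 genotypes was not called for Il33, as dm/- cells had 0 reads, whereas over the 6 genotypes with reads it was 2.48 with edgeR (adjusted p = 0.0001684) and 1.87 with limma (adjusted p = 2.055e-06).

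TGFβ lowered the antagonist Il1rn across the panel, lowered Il33 in ΔC/fl and dm/fl cells and raised Il1rl1 in 3 genotypes. Il1rn was lower with TGFβ in both replicates of all 7 genotypes, a pattern whose share among all genes was not counted. It fell from 106 and 45.6 CPM to 5.33 and 7.26 CPM in dm/fl cells, by 3.29 on the log2 scale (SE 0.48, adjusted p = 3.91e-06). It also fell in fl/fl (by 2.06, adjusted p = 0.003438), D164A/fl (by 1.61, adjusted p = 0.04605), ΔC/fl (by 1.84, adjusted p = 0.008728), ΔC/- (by 1.47, adjusted p = 0.04838) and dm/- cells (by 1.62, adjusted p = 0.02866). The difference in D164A/- cells was -1.36 with an adjusted p of 0.1141. The mean over 7 genotypes was -1.89 (SE 0.18, adjusted p = 4.636e-10). Il1rn is in a list that the study chose for differences from wild-type control cells with TGFβ, shared by D164A/- and ΔHD2/- cells. The D164A/- cells are in these samples, so the count of Il1rn is not independent evidence of this direction. The calls in D164A/fl and ΔC/- cells were lost with edgeR, with rescaling by the median of ratios and without a filter on low values. Leaving out 1 library ended the call in fl/fl (untreated replicate 1 or treated replicate 2), in ΔC/fl (each but untreated replicate 1), in ΔC/- (each but treated replicate 1) and, with any 1 of 4 samples left out, in D164A/fl and dm/- cells.

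Il33 fell in dm/fl cells from 28.7 and 13.3 CPM to 0.218 and 0.427 CPM, a 64.9-fold lower mean (log2 difference -3.96, SE 0.60, adjusted p = 8.246e-06). In ΔC/fl cells Il33 fell from 42.7 and 8.44 CPM to 0 and 0.128 CPM, the latter 0 and 3 reads, and the log2 difference was -4.26 (SE 0.60, adjusted p = 4.816e-06). In both genotypes the treated and untreated samples were far apart, and every replicate left out in turn kept the call. The difference in D164A/- cells, which kept 15.9 and 3.04 CPM with TGFβ, was -1.25 and did not pass (adjusted p = 0.3858). In D164A/fl cells Il33 was already under 1 CPM in the untreated cells of this experiment. The mean response was -1.40 (SE 0.23, adjusted p = 1.132e-05), and over the 6 genotypes with reads it was -1.63 with limma and -3.12 with edgeR (adjusted p = 2.541e-05).

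Il1rl1 rose with TGFβ from 2.83 and 1.19 CPM to 16.6 and 20.6 CPM in D164A/fl cells (log2 difference 2.75, adjusted p = 0.004931). In D164A/- cells it rose from 0.193 and 1.10 CPM to 7.58 and 17.8 CPM (3.00, adjusted p = 0.001385), and in ΔC/fl cells from 15.8 and 21.9 CPM to 69.4 and 179 CPM (2.52, adjusted p = 0.005165). In ΔC/- cells, which went from 0.0776 and 0.409 CPM to 2.51 and 2.37 CPM without overlap, the adjusted p was 0.1507, and the increase was called with a pseudocount of 0.1, with edgeR and when only the samples compared were fitted. In dm/- cells the replicates overlapped, at 1.28 and 2.19 CPM untreated and 1.25 and 2.48 CPM with TGFβ. In dm/fl cells, which started at 104 and 99.5 CPM, the replicates with TGFβ spread from 38.0 to 183 CPM. Each of the 3 calls was lost without 1 or the other of 2 libraries, which were treated replicate 2 in all 3 genotypes, untreated replicate 2 in D164A/fl and untreated replicate 1 in D164A/- and ΔC/fl cells. The mean over 7 genotypes was 1.46 (SE 0.23, adjusted p = 8.729e-06).

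The remaining members were called in few lines or none, and a line without a call is not shown to lack a response. Il1a rose in ΔC/- cells from 28.2 and 17.0 CPM to 502 and 117 CPM (log2 difference 3.41, adjusted p = 0.00454) and fell in dm/- cells from 17.0 and 14.1 CPM to 1.97 and 1.65 CPM (-2.55, adjusted p = 0.04386). Il18 fell in dm/fl cells from 11.2 and 7.33 CPM to 1.5 and 2.40 CPM (-1.79, adjusted p = 0.007824). Il1r1 rose in dm/- cells from 3.27 and 2.40 CPM to 12.8 and 27.96 CPM (2.39, adjusted p = 4.179e-05). The call of Il1a in dm/- cells was lost without any 1 of its 4 samples, that in ΔC/- cells without treated replicate 1 or untreated replicate 2, and that of Il18 without replicate 1, untreated or treated. Il1rap was not called in any genotype.

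Members were called with TGFβ 15 times over the 7 genotypes, 5 times upward and 10 times downward, and 3 of the 7 tested members were called in the mean response. The percentage of all genes called was 6.25% in fl/fl, 3.38% in D164A/fl, 4.06% in D164A/-, 7.74% in ΔC/fl, 6.55% in ΔC/-, 10.3% in dm/fl, 6.12% in dm/- and 4.88% for the mean. The TGFβ response differed among genotypes for Il33 (F test in limma, adjusted p = 8.116e-05), Il1r1 (adjusted p = 0.0007344), Il1a (adjusted p = 0.001689), Il1rl1 (adjusted p = 0.01192) and Il18 (adjusted p = 0.04497), in a test that 18.3% of all genes passed. For Il1rn and Il1rap it did not pass, and for Il18 it passed in 4 of the 28 fits that left out 1 sample. The untreated mean of Il33 was 0.132 CPM in fl/fl, 0.409 CPM in D164A/fl, 0.258 CPM in ΔC/- and 0 in dm/- cells. Little or no fall could appear there on the log2(CPM + 1) scale, so for Il33 the test does not separate response from starting level. When only the samples compared were fitted, 6 calls were made in place of 15, and the call of Il33 in ΔC/fl cells was lost.

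**Figure D3:**
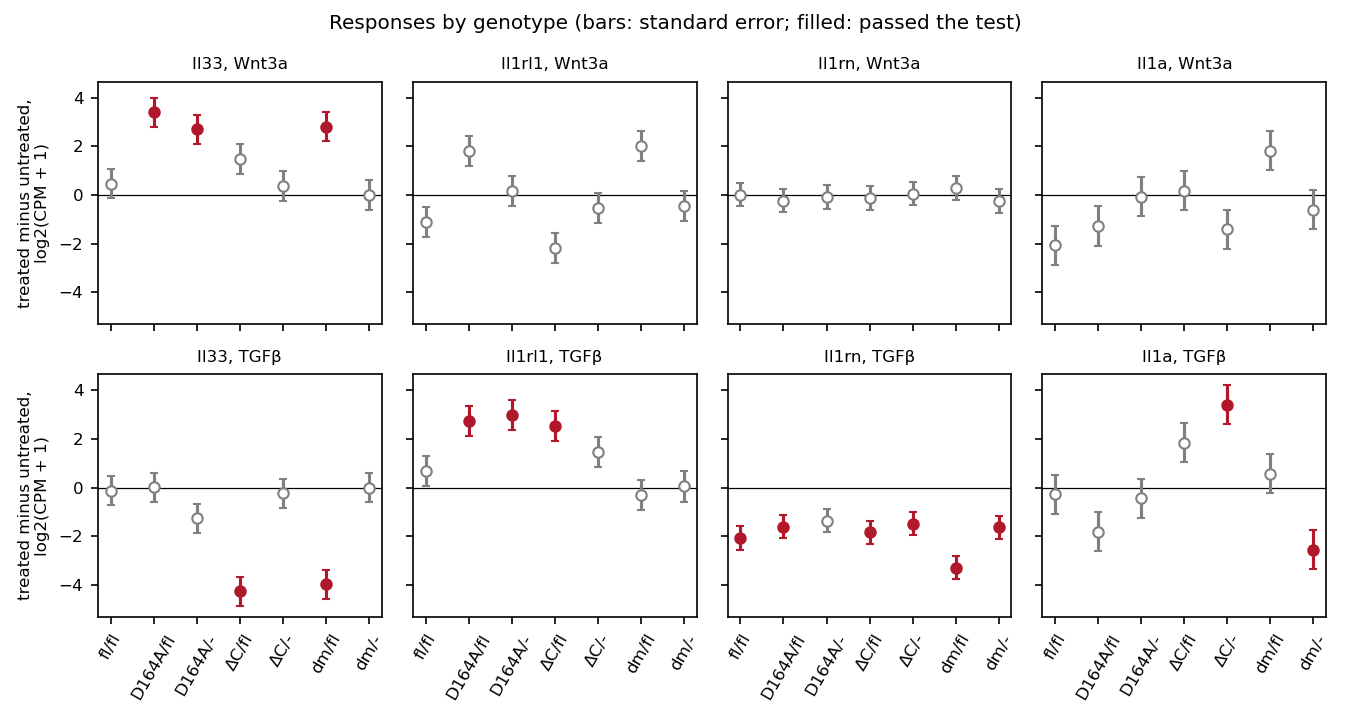
Difference between treated and untreated cells on the log2(CPM + 1) scale (y axis) in each of the 7 genotypes (x axis) for Il33, Il1rl1, Il1rn and Il1a, with standard errors as bars and filled points where the test was passed. Il33 lies above 0 with Wnt3a in D164A/fl, D164A/- and dm/fl cells and far under 0 with TGFβ in ΔC/fl and dm/fl cells, and Il1rn lies under 0 with TGFβ in all 7 genotypes.

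The next comparison asked what differed between cells with and without the floxed β-catenin allele, for each mutant allele. The methods also describe a control adenovirus without Cre, and whether the sequenced cells with a floxed allele had received it is not given in the sources used here. The D164A comparison uses the D164A/- samples by which the set was chosen, so its Il33 values are a description with no test. Il1rl1 was lower in ΔC/- than in ΔC/fl cells by 40.9-fold and 15.9-fold in untreated and Wnt3a-treated cells and by 77.4-fold and 51.0-fold in untreated and TGFβ-treated cells. Between dm/- and dm/fl cells it was lower by 20.1-fold, 102-fold, 58.7-fold and 59.3-fold in the same 4 states. These 8 differences all passed, with log2 differences from -6.11 to -3.03 and adjusted p-values from 2.995e-09 to 0.0006522. In the D164A lines, where D164A/fl cells already had little Il1rl1, none passed.

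The mean Il33 level of D164A/- cells was 4.11-fold and 2.42-fold that of D164A/fl cells in untreated and Wnt3a-treated cells and 45.8-fold and 22.4-fold in untreated and TGFβ-treated cells. The replicates did not overlap in any of the 4 states, although with Wnt3a the nearest samples were 118 and 116 CPM. In dm/- cells, at 0 reads, Il33 was at least 41.3-fold, 335-fold and 212-fold lower than in dm/fl cells in untreated and Wnt3a-treated cells and in untreated cells of the TGFβ experiment. With TGFβ the bound was 3.03-fold, as dm/fl cells had only 7 and 13 reads. The first 3 differences passed the test (adjusted p from 7.793e-08 to 0.006017). In the ΔC pair Il33 was 8.17-fold lower in ΔC/- cells with Wnt3a (log2 difference -1.91, adjusted p = 0.03109) and 99.1-fold lower in untreated cells of the TGFβ experiment (-4.01, adjusted p = 6.243e-06). The call with Wnt3a was lost without any 1 of its 4 samples, and that of the untreated dm pair of the Wnt3a experiment without dm/fl replicate 2.

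Il1a also took different directions. In the D164A pair it was lower in D164A/- cells, from 50.3 and 5.73 CPM to 1.68 and 2.03 CPM in untreated cells of the Wnt3a experiment (log2 difference -2.71, adjusted p = 0.04876) and from 68.6 and 74.7 CPM to 0.232 and 0.609 CPM in those of the TGFβ experiment (-5.69, adjusted p = 1.698e-06). With TGFβ it was lower too (-4.32, adjusted p = 0.0001931). In the ΔC pair it was higher in ΔC/- cells in 3 of the 4 states, by 3.58 (adjusted p = 0.002116), 2.88 (adjusted p = 0.01017) and 4.43 (adjusted p = 7.824e-05), and with Wnt3a it did not pass. In the dm pair it was lower in dm/- cells with Wnt3a (-2.97, adjusted p = 0.006494) and with TGFβ (-5.12, adjusted p = 1.045e-05). The call of the D164A pair in the Wnt3a experiment was lost without D164A/fl untreated replicate 1, at 50.3 CPM, or without either D164A/- sample. Leaving out ΔC/- replicate 1 or ΔC/fl replicate 2 ended the call of the untreated ΔC pair of the Wnt3a experiment, leaving out any sample but ΔC/- replicate 2 that of the TGFβ experiment, and leaving out dm/- replicate 2 that of the dm pair with Wnt3a.

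Il1r1 was lower in dm/- than in dm/fl cells in both untreated states and with Wnt3a, by 2.29, 3.12 and 2.06 on the log2 scale (adjusted p from 9.254e-08 to 0.0001027). With TGFβ it did not pass. Il1rn was lower in D164A/- than in D164A/fl cells in both states of the TGFβ experiment (-2.30, adjusted p = 0.0004226, and -2.05, adjusted p = 0.002551) and lower in dm/- than in dm/fl cells in the same states (-3.57, adjusted p = 5.102e-07, and -1.90, adjusted p = 0.003377). In the Wnt3a experiment, Il1rn passed in neither pair. Il18 was called once, in untreated dm/- cells of the TGFβ experiment (-1.32, adjusted p = 0.04335), and not without any 1 of the 4 samples. The call of Il1rn in the D164A pair with TGFβ was lost without D164A/fl replicate 2. Il1rn is in the study's list described above, chosen with D164A/- samples, so its calls in the D164A pair are not independent evidence.

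In the 4 states in the order untreated and Wnt3a-treated, then untreated and TGFβ-treated, 1, 0, 2 and 2 of the 6 tested members other than Il33 were called in the D164A pair, against 3.21%, 4.30%, 16.5% and 10.2% of all genes. In the ΔC pair 2, 2, 3 and 2 of the 7 tested members were called, against 8.16%, 9.60%, 12.0% and 14.2%. In the dm pair 3, 4, 5 and 3 were called, all lower in dm/- cells, against 16.5%, 16.6%, 16.1% and 16.8%. The median of the 7 log2 differences in the dm pair was -1.18, -2.06, -3.12 and -0.40, and the median of all genes was between -0.03 and 0. When only the samples compared were fitted, 19 calls were made over the 3 pairs in place of 31, with 2 of the 31 being Il33 in the D164A pair.

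**Figure D4:**
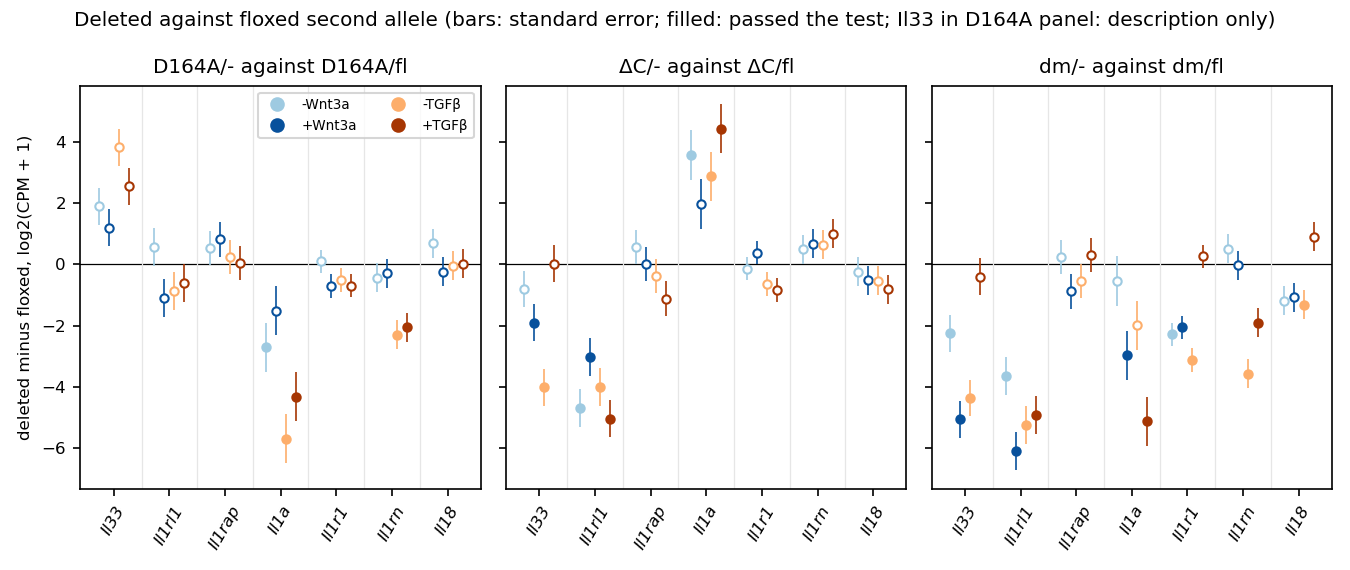
Differences between cells without and with the floxed allele on the log2(CPM + 1) scale (y axis) for the 7 tested members (x axis) in the 4 culture states (color), in 1 panel per mutant allele, with standard errors as bars and filled points where the test was passed, except that Il33 in the D164A panel is a description and is drawn open. Il1rl1 lies between -6.11 and -3.03 in the ΔC and dm panels and between -1.11 and 0.56 in the D164A panel, and Il33 lies above 0 in the D164A panel.

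Differences among genotypes were also tested without fl/fl and D164A/- cells, whose values had chosen the set. Over the remaining 5 genotypes, 7 of the 7 tested members differed in the untreated cells of the Wnt3a experiment and 6 of 7 in those of the TGFβ experiment, the exception being Il1rap (F tests in limma). In the first of these tests Il1a did not pass without ΔC/fl replicate 2, nor Il1rap without D164A/fl replicate 1. These tests were passed by 47.4% and 54.1% of all genes. Il33 had adjusted p-values of 0.0003276 and 7.439e-09 and Il1rl1 of 3.508e-09 and 4.951e-10. Markers of other cell types also differed among genotypes. The sum of 7 fibroblast markers had medians of 113 CPM in ΔC/fl, 126 CPM in dm/fl, 87.1 CPM in D164A/- and 63.2 CPM in D164A/fl cells, where Il33 was found in some or all states. The medians were 10.0, 9.79 and 7.26 CPM in fl/fl, ΔC/- and dm/- cells. Within D164A/fl cells the 2 did not go together. The sum was at least 54.3 CPM in all 8 samples, while Il33 was 0.142 to 0.675 CPM in the TGFβ experiment. Within this list Pdgfra had the highest median over all samples (40.3 CPM). Col3a1 reached 183.6 CPM and Col1a1 70.9 CPM, and Lum and Thy1 were near 0 in all samples. The sum of 7 leukocyte markers was 292 to 533 CPM in dm/fl cells, mostly Csf1r, and 1.31 to 6.90 CPM in D164A/- cells. The mast cell marker Kit was above 1 CPM in 16 samples, the D164A/fl and D164A/- samples, while Cpa3 did not exceed 0.0367 CPM. The part of other cell types in the differences of Il33 and Il1rl1 was not tested.

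Since Il33 was at 0 reads in dm/- cells, the genes beside it were examined. Of 10 protein-coding genes within 500 kb, 9 were in the table and 5 passed the filter on low values. In dm/- cells Ric1 had a median of 149 CPM, Ermp1 of 169 CPM, Uhrf2 of 127 CPM, 9930021J03Rik of 85.2 CPM and Ranbp6 of 25.7 CPM. Ric1 was higher in dm/- than in dm/fl cells in all 4 states, by 1.12 to 1.63 on the log2 scale (adjusted p from 0.001651 to 0.03099), and Ermp1 in both states of the Wnt3a experiment, by 1.91 (adjusted p = 0.0003523) and 1.07 (adjusted p = 0.04386). The other 3 were not called in this pair. Gldc, 137723 bases downstream of Il33, and Mbl2 were under the filter and had 0 reads in all 8 dm/- samples. Gldc was near 0 across the series, with a median of 0.0342 CPM over all samples and of 0.371 CPM in dm/fl cells. Pdcd1lg2 and Mlana, also under the filter, had their highest samples in dm/- cells, at 0.757 and 0.813 CPM. None of the 5 tested neighbours was called in the mean Wnt3a or TGFβ response.

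**Figure D5:**
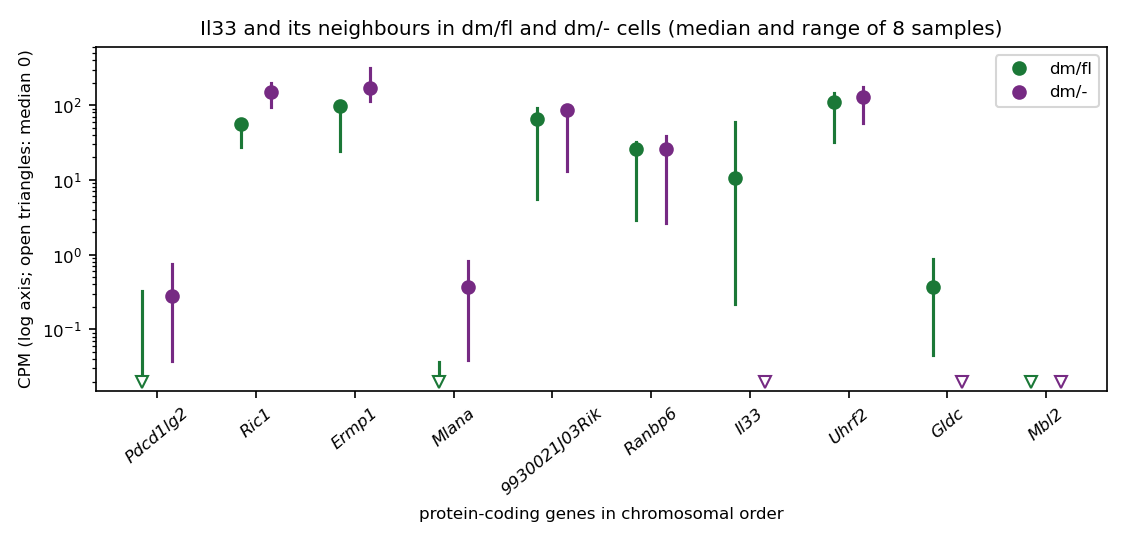
Median and range over 8 samples in CPM (log axis) of Il33 and the protein-coding genes within 500 kb, in chromosomal order, in dm/fl and dm/- cells, with open triangles for a median of 0. The neighbours Ric1, Ermp1, 9930021J03Rik, Ranbp6 and Uhrf2 are expressed in dm/- cells at medians of 25.7 to 169 CPM, where Il33 has 0 reads.

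The 5 genes whose condition means were most like those of Il33 on the log2(CPM + 1) scale were Acss1, Epas1, Sytl4, Tgfb3 and Acss2. Pearson's r over the 28 condition means was 0.87 for Acss1, a mitochondrial acetyl-CoA synthetase, 0.83 for Epas1, a hypoxia-inducible transcription factor, and 0.83 for Sytl4, which acts in vesicle secretion. It was 0.82 for Tgfb3, a TGFβ ligand, and 0.82 for Acss2, the cytosolic acetyl-CoA synthetase. Spearman's rho was 0.90, 0.80, 0.75, 0.87 and 0.79 in the same order. The condition means share lines and libraries, and the genes were selected for this likeness. Acss1 did not exceed 0.0354 CPM in dm/- cells and reached 12.9 CPM elsewhere. In the mean response to TGFβ, Epas1 was called (-1.199, adjusted p = 4.286e-07), and Acss1 had -0.81 (adjusted p = 1.234e-08). None of the 5 was called in the mean Wnt3a response. Of the other members, Il1rn was most like Il33 (r = 0.52) and Il1a least (r = -0.44).

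The rest of the IL-1 pathway was read from 5 lists. In the mean responses, 0.494% of all genes were called with Wnt3a and 4.88% with TGFβ. Of 19 genes of signal transduction from Myd88 to the NF-κB subunits, 0 were called in either. Of 5 tested receptors and binding proteins outside the 8 members, Il18rap, a subunit of the IL-18 receptor, rose with TGFβ (1.78, adjusted p = 1.9e-06) and Sigirr, an inhibitory receptor, fell (-1.46, adjusted p = 6.941e-06). Of 17 genes known as targets of NF-κB, 3 fell with Wnt3a in the mean, namely the chemokine genes Cxcl5 (-1.45), Ccl2 (-1.22) and Ccl20 (-1.17), with adjusted p-values from 0.0001559 to 0.0009375. With TGFβ, 2 of the 17 rose and 5 fell, among them the growth factor gene Csf2 (2.73, adjusted p = 1.066e-11), Cxcl5 (-2.06, adjusted p = 5.64e-08) and the iron-binding Lcn2 (-1.78, adjusted p = 0.001801). Csf2 and Cxcl5, with Tnf and Tnfaip3, are in a list that the study chose on these samples and are not independent evidence of direction. The 5 tested genes of cytokine maturation and release gave no call in either mean response. The medians of the 17 NF-κB targets were -0.31 with Wnt3a and -0.21 with TGFβ, against -0.0045 and -0.02 for all genes.

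Between D164A/- and D164A/fl cells, 12 of the 17 NF-κB targets were lower in D164A/- cells in untreated cells of the TGFβ experiment, where 16.5% of all genes were called, and 10 with TGFβ, where 10.2% were. Here Cxcl5 (-6.42), Cxcl1 (-5.41) and the prostaglandin synthase gene Ptgs2 (-4.15) had the largest differences, with adjusted p-values from 3.501e-09 to 0.0002825, and the NF-κB subunit genes Relb (-2.88, adjusted p = 0.0004226) and Nfkb2 (-2.17, adjusted p = 0.005444) were lower as well. In the Wnt3a experiment 5 of the 17 were lower in untreated cells, where 3.21% of all genes were called, and 0 were called with Wnt3a, where 4.30% were. Cxcl5, Csf2, Tnf and Tnfaip3 are in the study's list named above, which was chosen with D164A/- samples. Their part in these counts and differences is not independent evidence. Irak3, which encodes an inhibitory kinase of the pathway, was lower in D164A/- cells in 2 of the 4 states, most in untreated cells of the Wnt3a experiment (-1.49, adjusted p = 0.006202). The IL-36 ligand genes Il36a (-2.88, adjusted p = 1.147e-08) and Il36g (-2.91, adjusted p = 2.119e-07) and the antagonist Il36rn (-2.02, adjusted p = 1.438e-07) were lower in D164A/- cells in 1 or 2 of the 4 states. Of the 4 tested genes of this list, 1, 3, 1 and 0 were lower in the 4 states in the order above, and none was higher. Among the 3 called with Wnt3a was Il36b, which reached 1 CPM only in D164A/fl cells with Wnt3a (3.70 and 2.53 CPM). It passed the filter on low values through that group alone, so its call is not evidence of a difference.

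In the ΔC and dm pairs, the NF-κB targets went both ways. In the ΔC pair 1, 2, 0 and 5 of the 17 were higher and 2, 2, 2 and 3 lower in ΔC/- cells in the 4 states, where 8.16%, 9.60%, 12.0% and 14.2% of all genes were called in either direction. The chemokine gene Ccl2 was lower in 4 of 4 states, most with Wnt3a (-4.07, adjusted p = 1.496e-05), Csf3 was higher in 2, most with TGFβ (3.79, adjusted p = 1.468e-05), and Lcn2 was higher in 1, with TGFβ (3.75, adjusted p = 0.01765). Irak3 was lower in 4 of 4 states, most in untreated cells of the TGFβ experiment (-2.23, adjusted p = 9.876e-06), and Il36g was higher in both states of the TGFβ experiment. Sigirr (2.03, adjusted p = 0.01588) and Il18r1, the ligand-binding IL-18 receptor subunit (1.69, adjusted p = 0.01327), were higher in ΔC/- cells with TGFβ. Gsdmd, the pore-forming protein through which mature IL-1 family cytokines leave the cell, was higher in 4 of 4 states, most with TGFβ (1.86, adjusted p = 0.0001059), and Casp1, the protease that matures IL-1β and IL-18, was lower in 2 of 4, most in untreated cells of the TGFβ experiment (-2.07, adjusted p = 0.01137). In the dm pair 5, 7, 1 and 3 of the 17 NF-κB targets were higher and 1, 1, 4 and 3 lower in dm/- cells, where 16.5%, 16.6%, 16.1% and 16.8% of all genes were called. Lcn2 was higher in 3 of 4 states, most with TGFβ (7.58, adjusted p = 5.826e-06), and Ccl20 in 2, most with Wnt3a (3.98, adjusted p = 2.46e-06). Csf2 was higher in 3 states, most in untreated cells of the Wnt3a experiment (3.77, adjusted p = 7.699e-06), and was called lower with TGFβ, where dm/fl cells had 24.8 and 11.6 CPM and dm/- cells 0.644 and 9.02 CPM. Irak2, a kinase of the pathway, was higher in 4 of 4 states, most with TGFβ (1.85, adjusted p = 0.0001064). The NF-κB subunit genes Rel (-1.51, adjusted p = 0.01374), with TGFβ, and Nfkb1 (-1.39, adjusted p = 4.321e-05), in untreated cells of the TGFβ experiment, were lower in 1 state each, and Casp1 was lower in untreated cells of the TGFβ experiment (-2.70, adjusted p = 0.0006835). Il36rn (-1.65, adjusted p = 2.824e-06) and Il36g (-1.01, adjusted p = 0.03563) were lower in dm/- cells with Wnt3a.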

How the data were processed

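Per the methods and labels, the authors prepared stranded poly(A) libraries (TruSeq), mapped single-end reads to mm10 with STAR, kept unique hits, and counted reads starting in exons of RefSeq genes with QuasR. The deposited values are a signal in CPM, that is read counts divided by an effective library size. In all 56 samples 100% of values were whole reads within 0.001 reads, so reads could be recovered. All 56 columns were mapped to labelled samples, and 20261 of 20314 Entrez identifiers matched a RefSeq symbol. Values were tested as log2(CPM + 1) with limma 3.58.1 in R 4.3.3 (28 condition means, eBayes with trend), over 13754 genes that reached 1 CPM in 2 or more samples, with Benjamini-Hochberg adjustment over these genes. The CPM table is called signal because the column totals differ. A fold change on this scale understates that of low genes.

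The members and gene lists were chosen with earlier results of these data known. Named genes are the 8 members, up to 3 called genes with the largest change per pathway list and comparison, the 5 genes most correlated with Il33, and the protein-coding genes within 500 kb. Exonic lengths and overlaps were taken from GENCODE vM21 and promoters from RefSeq (GRCm38.p6). The mast cell markers Fcer1a and Mcpt4 were not analysed here. Alternatives were a pseudocount of 0.1, no filter, the median of ratios, edgeR 4.0.16 on the reads, removal of the GC trend, only the samples compared, a replicate block, other thresholds and leaving out each sample. The mean response without dm/- was added after seeing the data. The fit was checked on simulated data. Tables were made in Python 3.11.15 with pandas 2.3.3 and numpy 2.4.6.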

Additional observations from a re-analysis of the deposited data

Results flagged for a closer look

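The following 7 responses were picked out because the effect of the same treatment differed among the 7 genotypes by an F test in limma. With Wnt3a these were Il33 (adjusted p = 0.03678), with log2 differences from 0 in dm/- cells, which had 0 reads, to 3.40 in D164A/fl cells, and Il1rl1 (adjusted p = 0.01414), with differences from -2.19 in ΔC/fl to 2.01 in dm/fl cells. With TGFβ, Il33 (adjusted p = 8.116e-05) ranged from -4.26 in ΔC/fl to 0.02 in D164A/fl cells and Il1a (adjusted p = 0.001689) from -2.55 in dm/- to 3.41 in ΔC/- cells. Il1r1 (adjusted p = 0.0007344) ranged from -0.99 in dm/fl to 2.39 in dm/- cells, Il1rl1 (adjusted p = 0.01192) from -0.28 in dm/fl to 3.00 in D164A/- cells, and Il18 (adjusted p = 0.04497) from -1.79 in dm/fl to 0.77 in D164A/- cells. The F test passes for 2.39% of all genes with Wnt3a and for 18.3% with TGFβ. It used log2(CPM + 1) values, on which a gene near 0 CPM in a line shows little change. For Il33 it therefore does not separate response from starting level. Each genotype is a cell line or a small number of them, and the part of the line in these differences was not tested.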

How the results depend on the processing

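The 3 calls of members for Wnt3a became 1 with a pseudocount of 0.1, 1 with edgeR on whole reads, 5 with the GC trend removed, 0 with only the samples compared, 6 with the replicate block, 11 at an unadjusted p up to 0.05 with a 1.5-fold change, and 2 to 8 when each sample was left out in turn, with 8 without dm/fl untreated replicate 2. The 15 calls for TGFβ became 6 with only the samples compared, 23 at the unadjusted threshold and 11 to 16 with 1 sample left out. The 31 calls for deleted against floxed cells became 19 with only the samples compared and 29 to 34 with 1 sample left out. The 31 include the 2 calls of Il33 in the D164A pair, which are a description and not a test. The 7 responses that differed among genotypes became 4 to 9, with 4 without Wnt3a-treated D164A/fl replicate 1, and the 13 differences among 5 genotypes became 12 to 13. The cause of these changes was not tested, except that fewer samples enter the fit where samples are left out. A condition left with 1 sample was assumed to vary like the others. The tally of single tests that follows, under other settings and with 1 sample left out, covers a part of the member tests only. It therefore does not count all of the calls gained above. Of the tallied tests under other settings 525 kept direction and side of the threshold, 66 lost the call, 33 of them with only the samples compared, and 1 gained it. With 1 sample left out, 594 kept it and 96 lost it, and no called value changed sign. Replicate numbers are shared by the conditions in the labels, which do not say that they mark a shared culture or day. The deviations of same-numbered samples correlated at 0.51 to 0.93 for Wnt3a in 6 of 7 genotypes and -0.07 in dm/fl, and between -0.55 and 0.93 over all comparisons, so the numbers were not taken to pair samples. With the replicate block, 17 calls were made for TGFβ, 31 for deleted against floxed cells, 6 for responses that differed among genotypes and 13 among 5 genotypes. For Wnt3a the block added calls of Il1a (adjusted p = 0.04981) and Il1rap (adjusted p = 0.02507) in fl/fl and of Il1rl1 in D164A/fl cells (adjusted p = 0.0449, limma). Under it Il33 lost the difference of its Wnt3a response among genotypes (adjusted p = 0.07685, limma). Values under 3 reads, as for Il33 in fl/fl cells with TGFβ, and Il1b throughout, are limited by depth.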
